A study of Homo sapiens with 12 samples.

Results

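The 8 genes described here are KLK2, KLK3, KLK4, KLK10, KLK11, KLK12, KLK15 and the transcribed pseudogene KLKP1, all of the human kallikrein cluster. They were chosen by name, and each matched 1 of the 63677 Ensembl gene IDs in the count table. RNA sequencing was done on LNCaP, a prostate cancer line that responds to androgen and secretes prostate-specific antigen, in 12 libraries of 4 groups of 3. One pair of groups was a pLPLUC vector control and cells overexpressing USP22, the ubiquitin protease of the SAGA coactivator complex. The other pair carried a control shRNA or a single shRNA against USP22, and both were kept on 1 ug/mL doxycycline, given every 48 hours, for 5 days. All cells grew in hormone-proficient medium, and no label names separate cultures for the replicates. The p-values therefore measure only the spread between these libraries, which may be technical.

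Tissue kallikreins are secreted serine proteases whose genes lie side by side on chromosome 19. KLK3 encodes prostate-specific antigen, which liquefies semen by cutting the semenogelins and is measured in blood to follow prostate cancer, and KLK2 encodes a trypsin-like protease that can activate the precursor of prostate-specific antigen. In prostate cells androgen induces both genes, through response elements in the promoter and in a distal enhancer.

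The promoters of the genes that carried most of the reads are shown because KLK2 and KLK3, which share much of this sequence, changed by different amounts below. Each is the 250 bases before the RefSeq start site (GRCh38.p14), read 5′ to 3′ on the strand of the gene. Capitals mark a match of 13 bases to an androgen response element with a relaxed right arm, written GAACA, then any 4 bases, then GTNC (N is any base, both strands searched). The windows are chr19:50854665-50854914 on the plus strand for KLK3, chr19:50873189-50873438 on the plus strand for KLK2 and chr19:50911396-50911645 on the minus strand for KLK4.
KLK3: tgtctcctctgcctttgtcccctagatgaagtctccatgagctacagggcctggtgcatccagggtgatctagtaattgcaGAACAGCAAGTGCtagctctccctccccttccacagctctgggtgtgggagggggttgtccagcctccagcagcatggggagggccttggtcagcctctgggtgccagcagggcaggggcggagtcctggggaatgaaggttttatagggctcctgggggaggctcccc
KLK2: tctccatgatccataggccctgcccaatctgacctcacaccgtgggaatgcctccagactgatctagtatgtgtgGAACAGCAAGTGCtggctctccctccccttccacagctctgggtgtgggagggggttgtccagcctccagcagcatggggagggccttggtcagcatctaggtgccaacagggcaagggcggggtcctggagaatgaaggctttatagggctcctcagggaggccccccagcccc
KLK4: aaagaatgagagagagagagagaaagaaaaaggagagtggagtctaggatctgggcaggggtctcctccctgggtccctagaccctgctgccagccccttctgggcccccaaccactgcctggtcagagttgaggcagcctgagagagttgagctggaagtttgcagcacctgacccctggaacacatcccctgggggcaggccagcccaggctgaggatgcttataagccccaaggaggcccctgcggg

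KLK3 and KLK2 each held 1 match, with the same 13 bases, starting 169 bases before the start site in KLK3 and 175 bases before it in KLK2. Of 35116 windows of this length in the RefSeq table, 0.601% held a match. The motifs were chosen after the data were seen, so the shares of windows given here are descriptive and test nothing. With the base on each side the element reads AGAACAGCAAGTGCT in KLK3 and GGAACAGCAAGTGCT in KLK2, which differ by A1G, counted from 1 at the 5′ end and written from KLK3 to KLK2. The shorter motif AGAACA, which overlaps the element, was found in the KLK3 window and not in the KLK2 window, and stood in 12.4% of all windows. It starts at the substituted base, so at the element this is the same A1G difference. Both windows also held TATAAA on the opposite strand, 28 to 23 bases before the start in KLK3 and 34 to 29 bases before it in KLK2 (10.7% of all windows). In a global alignment 79.2% of the columns were identical between KLK3 and KLK2, with an unbroken shared run of 80 bases, against 47.6% between KLK3 and KLK4. The KLK4 window held none of these 3 motifs. No window of the 8 members held the exact palindrome, GAACA and TGTTC with any 3 bases between them (0.0228% of all windows), and the RefSeq table had no window for KLKP1.

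The libraries held 77607469 to 103690001 counted reads. USP22 followed the labels, at 481.6, 490.6 and 565.2 CPM (counts per 1000000 reads of the TMM-scaled library size) in the vector control, 1498, 1406 and 1495 after overexpression, 479.6, 473.4 and 479.7 in the shRNA control and 256.9, 265.3 and 250.6 CPM after depletion. All 9 luminal prostate markers examined were present, with means over the 12 libraries from 74.7 CPM for EPCAM to 1120 CPM for FOLH1, while KRT5 and TP63 of basal cells were below 0.008 CPM. The highest of the 5 basal genes examined averaged 1.89 CPM. Vector control replicate 3 stood apart in its mitochondrial share of reads, 0.691% against 1.04% and 1.24% in its group mates, and it had the highest CPM of USP22, KLK3, KLK2, KLK4 and KLK15 in its group.

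Only a run of neighbouring genes in the cluster had more than traces of RNA. In gene order KLK15, KLK3, KLK2, KLKP1 and KLK4 stand 2nd to 6th of the 16 kallikrein genes, and they were the 5 members that passed the filter on low counts. Per kilobase of exon, KLK3 was the most abundant member in the vector control at 268.7 ± 31.1 CPM per kb (SD, n = 3). KLK2 followed at 49.4 ± 5.73, KLK4 at 21.5 ± 2.61, KLKP1 at 3.12 ± 0.22 and KLK15 at 1.3 ± 0.417 CPM per kb. The 3 libraries did not overlap between any neighbours in that order. Per kilobase the order was the same in the other 3 groups. After depletion its top was closer together, with KLK3 at 70.3 ± 7.32, KLK2 at 53.8 ± 3.72 and KLK4 at 41.8 ± 0.89 CPM per kb (SD, n = 3). Without division by exon length KLK2 stood above KLK3 after depletion, at a mean of 344 against 326.3 CPM. The place of KLK3 there thus rests on the exon lengths used, 6394 bases for KLK2 and 4639 for KLK3. Exon lengths were from GENCODE 29, which may differ from the annotation used for counting.

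**Figure D1:**
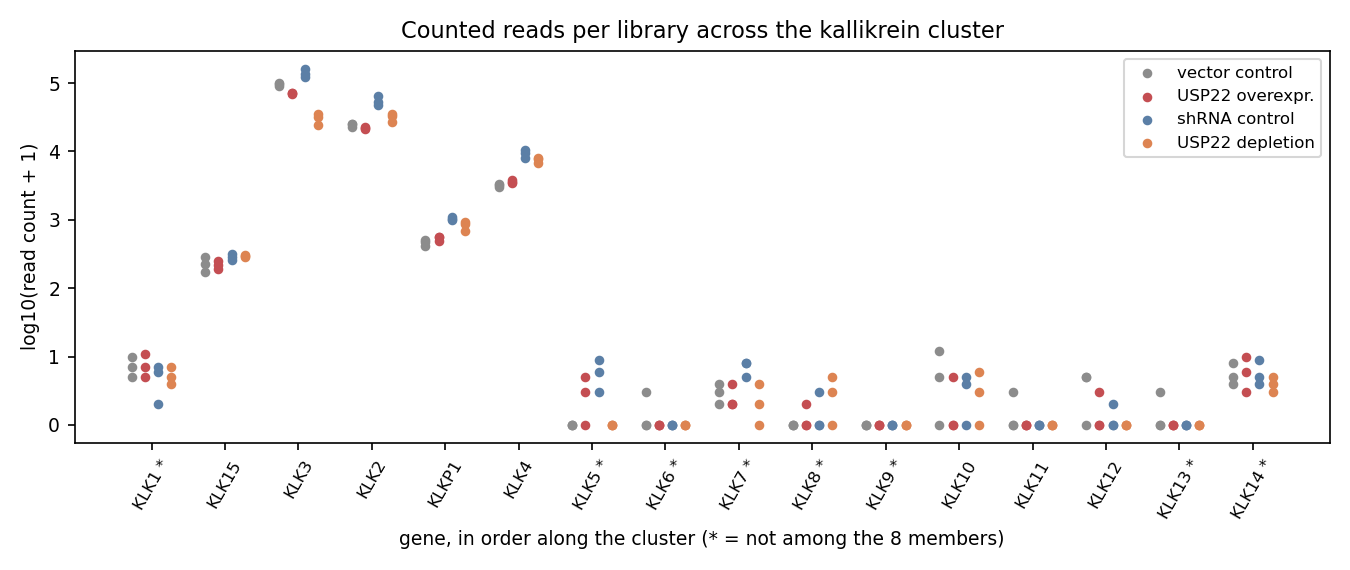
Read counts per library, as log10 of the count plus 1, for the 16 kallikrein genes in their order along the cluster, with 1 point per library coloured by group. KLK15, KLK3, KLK2, KLKP1 and KLK4 form a run between 170 and 162997 reads, and no other gene of the cluster passed 11 reads in a library.

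KLK10, KLK11 and KLK12 were at the edge of detection and were not tested. KLK10 had 4, 0 and 11 reads in the vector control, 4, 0 and 0 after overexpression, 0, 3 and 4 in the shRNA control and 2, 5 and 0 after depletion. KLK12 had 4, 4 and 0 reads in the vector control, 2 reads in 1 overexpression library, 1 read in 1 shRNA control library and none after depletion. KLK11 had 2 reads in 1 vector control library and none in the other 11. For both KLK11 and KLK12, 0 reads in the 3 depletion libraries allow a level of up to 0.0113 CPM (3 reads over the unscaled totals of the group, counting error only). For KLK11, with 2 reads in all, a difference between groups was not detectable at this depth, and for KLK12 the groups overlapped at 0 reads. The 8 kallikreins outside the member list (KLK1, KLK5 to KLK9, KLK13 and KLK14) had at most 10 reads in a library and none was tested.

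KLK3, the gene of prostate-specific antigen, fell in both comparisons, which share no library. Its level was 1155, 1172 and 1413 CPM in the vector control and 863.4, 856.1 and 903 CPM after overexpression. All 3 overexpression libraries lay below all 3 vector controls, at 0.701 of control (log2 fold change -0.51, SE 0.08, edgeR adjusted p = 0.00128), and without vector control replicate 3 the value was -0.41 (edgeR adjusted p = 6.44e-05). In the shRNA control KLK3 was at 1464, 1426 and 1394 CPM, and after depletion at 330.4, 358 and 290.4 CPM. Every depletion library lay far below every control, at 0.229 of control on average (log2 fold change -2.13, SE 0.08, edgeR adjusted p = 1.54e-10). In these cultures fewer KLK3-making cells and less KLK3 RNA per cell cannot be told apart. By mean CPM the gene ranked 42nd of 63677 in the vector control and 81st after overexpression, and 21st in the shRNA control and 350th after depletion. Its depletion value was the 130th lowest of 26076 tested genes.

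KLK2 fell on depletion, by less than KLK3. It stood at 589.7, 561.3 and 539.2 CPM in the shRNA control and at 341.8, 368.8 and 321.3 CPM after depletion, so the groups did not overlap (log2 fold change -0.71, SE 0.08, 0.611 of control, edgeR adjusted p = 6.14e-06). In the vector control it was at 286.7, 303.4 and 356.8 CPM and after overexpression at 268.8, 260.9 and 277.3 CPM. The overexpression libraries were all lower, but the difference did not pass the test (log2 fold change -0.23, SE 0.08, edgeR adjusted p = 0.107). It passed without vector control replicate 1 (-0.30, edgeR adjusted p = 0.0409) and with no filter on low counts (-0.21, edgeR adjusted p = 0.0329), while without vector control replicate 3 it shrank to -0.14 (edgeR adjusted p = 0.162).

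KLK4, a protease made in the prostate and in developing tooth enamel, moved little within either comparison. Its level was 93.1, 92.5 and 96.3 CPM in the shRNA control and 82.8, 79.6 and 80.2 CPM after depletion. The groups did not overlap, and the fall just passed the test (log2 fold change -0.22, SE 0.07, 0.86 of control, edgeR adjusted p = 0.0445). That call was lost in 11 of 19 alternative analyses, among them RLE scaling (edgeR adjusted p = 0.0542), no filter on low counts (edgeR adjusted p = 0.0724) and leaving out any 1 of the overexpression, shRNA control or depletion libraries (edgeR adjusted p = 0.0632 to 0.159). It was kept in a fit of the 6 shRNA libraries alone (-0.21, edgeR adjusted p = 0.000646). Without vector control replicate 3 it was kept as well (-0.22, edgeR adjusted p = 0.000167). Those settings called 32.0% and 31.1% of all tested genes, against 19.8% in the main fit. In the vector control KLK4 stood at 38, 39.3 and 47.4 CPM and after overexpression at 44.7, 43.3 and 42.6 CPM. Those groups overlapped (log2 fold change 0.07, edgeR adjusted p = 0.672). The value depended on the vector control libraries: it was 0.0058 without replicate 1 (edgeR adjusted p = 0.975), 0.027 without replicate 2 (edgeR adjusted p = 0.889) and 0.17 without replicate 3, where it passed (edgeR adjusted p = 0.0268).

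KLKP1, the pseudogene between KLK2 and KLK4, did not pass the test in either comparison. It was at 9.77, 11.4 and 10.5 CPM in the shRNA control and 9.62, 9.06 and 8.27 CPM after depletion. Every depletion library was lower, at 0.851 of control on average (log2 fold change -0.23, SE 0.09, edgeR adjusted p = 0.082). This value passed in a fit of the 6 shRNA libraries alone (edgeR adjusted p = 0.0353) and without vector control replicate 3 (edgeR adjusted p = 0.027). It was smaller without shRNA control replicate 2 (-0.15, edgeR adjusted p = 0.387) and without depletion replicate 3 (-0.15, edgeR adjusted p = 0.347). The vector control had 6.45, 5.73 and 5.72 CPM and overexpression 6.75, 6.85 and 6.14 CPM, groups that overlapped (log2 fold change 0.14, edgeR adjusted p = 0.449).

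KLK15, a low-level kallikrein of the prostate that can also activate the precursor of prostate-specific antigen, showed no detectable difference. The vector control had 2.9, 2.07 and 3.97 CPM and overexpression 2.22, 3.03 and 2.7 CPM. The shRNA control had 2.87, 2.97 and 2.89 CPM and depletion 2.88, 3.16 and 3.53 CPM. The ranges overlapped in both comparisons (log2 fold changes -0.16 and 0.13, SE 0.18 each, edgeR adjusted p = 0.683 and 0.687). Its overexpression value ran from -0.37 without vector control replicate 2 to 0.09 without replicate 3, and its depletion value from 0.077 without depletion replicate 3 to 0.22 without depletion replicate 1. A GENCODE 29 antisense gene that overlaps KLK15 (ENSG00000267968) had 35 to 80 reads per library against 170 to 320 for KLK15, and the strand setting of the counting is not given in the sources used here.

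**Figure D2:**
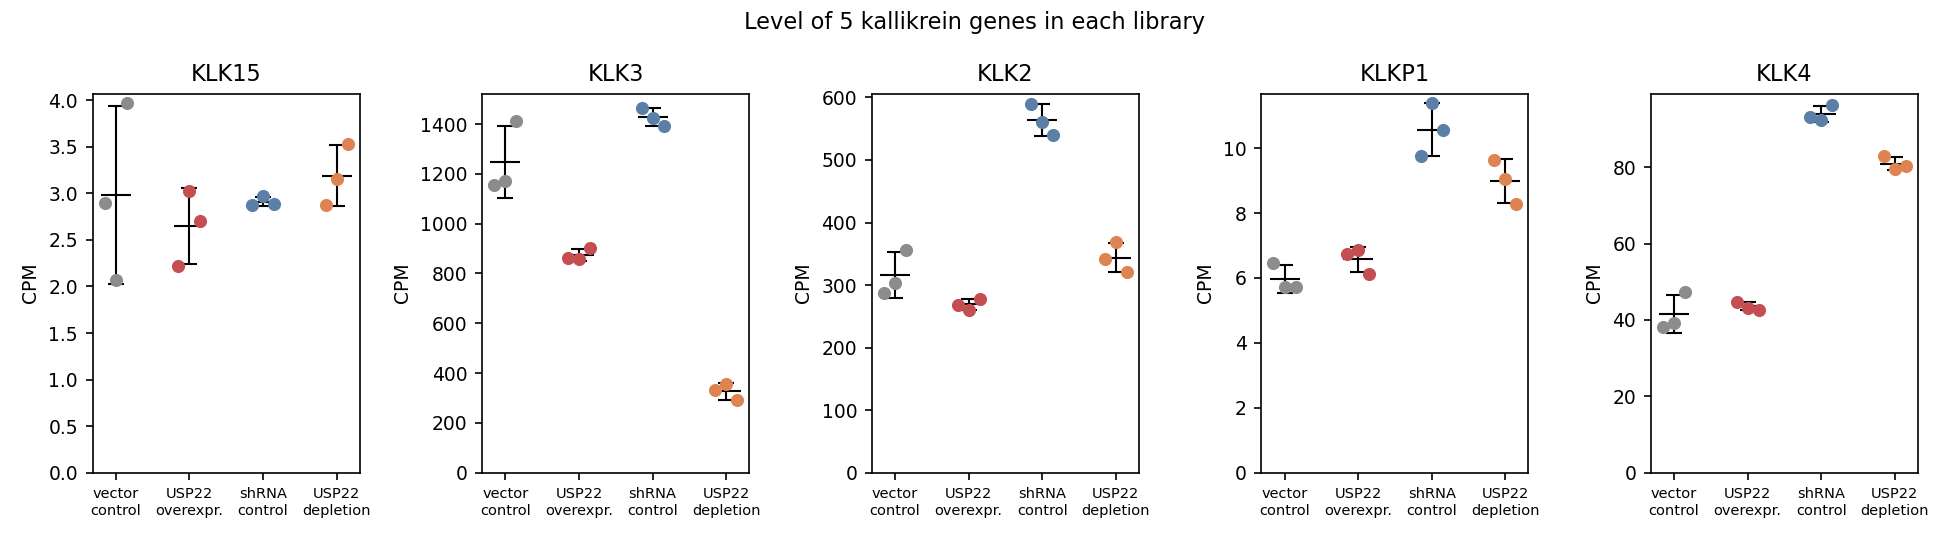
CPM of the 5 tested members in each library by group, each panel with its own axis from 0, with 1 point per library and bars for the mean ± SD of 3 libraries. KLK3 falls to 290.4 to 358 CPM after depletion while KLK4 stays between 79.6 and 82.8 CPM, and KLK2, KLKP1 and KLK4 are higher in the shRNA control than in the vector control.

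Across the 8 members, 1 of 5 tested genes was called on overexpression (KLK3, lower) and 3 of 5 on depletion (KLK3, KLK2 and KLK4, all lower), by edgeR with an adjusted p under 0.05. Of all 26076 tested genes, 4.11% were called on overexpression (1.51% higher, 2.6% lower) and 19.8% on depletion (9.4% higher, 10.4% lower). Falls of at least 2-fold were rarer, at 2.26% of tested genes on depletion, and KLK3 was the 1 member among them. The median log2 fold change of the 5 was -0.16 on overexpression and -0.23 on depletion, against -0.01 and 0.00 over all tested genes. Libraries of the 2 groups did not overlap for KLK3 and KLK2 on overexpression (22.4% of all tested genes) and for KLK3, KLK2, KLK4 and KLKP1 on depletion (41.8% of all tested genes).

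The response to overexpression and that to depletion differed for KLK3 and KLK2. The 2 pairs of groups also differ in vector and doxycycline, which cannot be told apart here from the USP22 change. USP22 itself was 2.86-fold higher in one pair and at 0.539 of control in the other. The overexpression log2 fold change minus the depletion one was 1.62 for KLK3 (SE 0.11, edgeR adjusted p = 4.07e-07) and 0.48 for KLK2 (SE 0.11, edgeR adjusted p = 0.00849). For both genes the 2 parts were negative, so the difference measures how much larger the fall on depletion was. The overexpression part of KLK2 (-0.23) did not itself pass the test. KLKP1 (0.37, edgeR adjusted p = 0.08), KLK4 (0.28, edgeR adjusted p = 0.0932) and KLK15 (-0.30, edgeR adjusted p = 0.537) did not pass. Over all tested genes 10.9% passed this test (4.91% with a positive difference). When genes had to reach 1 CPM in 3 libraries, KLK4 and KLKP1 passed as well (edgeR adjusted p = 0.0374 and 0.043), and KLK4 also passed without vector control replicate 3 (edgeR adjusted p = 6.76e-05). With that filter 3186 of 15897 tested genes passed, and without that replicate 5320 of 26896, against 2840 of 26076 in the main fit.

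The 2 control groups themselves differed in KLK2, KLKP1 and KLK4. KLK4 was 2.26-fold higher in the shRNA control than in the vector control (log2 difference 1.18, SE 0.07, edgeR adjusted p = 3.93e-09). KLK2 was 1.78-fold higher (0.84, SE 0.08, edgeR adjusted p = 2.31e-07) and KLKP1 1.77-fold higher (0.82, SE 0.09, edgeR adjusted p = 2.1e-06). KLK3 had a log2 difference of 0.20 (SE 0.08, edgeR adjusted p = 0.0605), which passed in 5 of 18 alternative analyses. Among them were the fit without vector control replicate 3 (0.29, edgeR adjusted p = 0.000297) and that with no filter on low counts (0.22, edgeR adjusted p = 0.00223). KLK15 had a log2 difference of -0.03 (edgeR adjusted p = 0.919). For KLK4, KLK2 and KLKP1 the libraries did not overlap (49.8% of all tested genes). Between these groups 43.0% of tested genes were called (21.7% higher). The groups differ in vector and in doxycycline, which cannot be told apart here, and this comparison shares its control libraries with the other comparisons. Set side by side, KLK2 after depletion (at least 321.3 CPM) overlapped the vector control (at most 356.8 CPM), KLK4 and KLKP1 after depletion lay above every vector control library, and KLK3 after depletion lay below every other library.

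**Figure D3:**
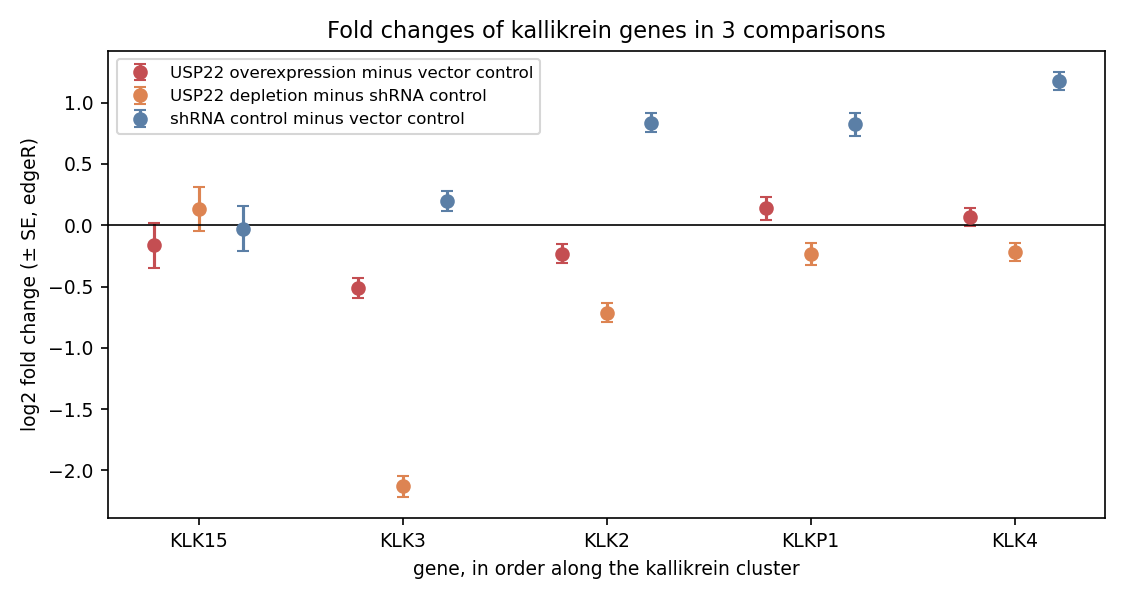
Log2 fold changes with their standard errors from edgeR for the 5 tested members, in gene order, in 3 comparisons coloured as in the key. KLK3 has the lowest depletion value (-2.13), and KLK2, KLKP1 and KLK4 differ between the control groups by 0.82 to 1.18.

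KLK3 made up a smaller part of kallikrein RNA after USP22 was raised or depleted. Summed over the 16 genes per kilobase of exon, KLK3 made up 77.9% to 78.2% in the vector control and 72.7% to 73.6% after overexpression. It made up 68.1% to 68.3% in the shRNA control and 39.1% to 42.4% after depletion. KLK2 went from 19.5% ± 0.425 to 31.3% ± 0.465 on depletion and KLK4 from 10.8% ± 0.451 to 24.4% ± 1.66 (SD, n = 3), although the CPM of both genes was lower after depletion. The summed kallikrein CPM was 1613 ± 186 in the vector control and 1196 ± 32 after overexpression. It was 2099 ± 58.3 in the shRNA control and 763.4 ± 57.5 after depletion.

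**Figure D4:**
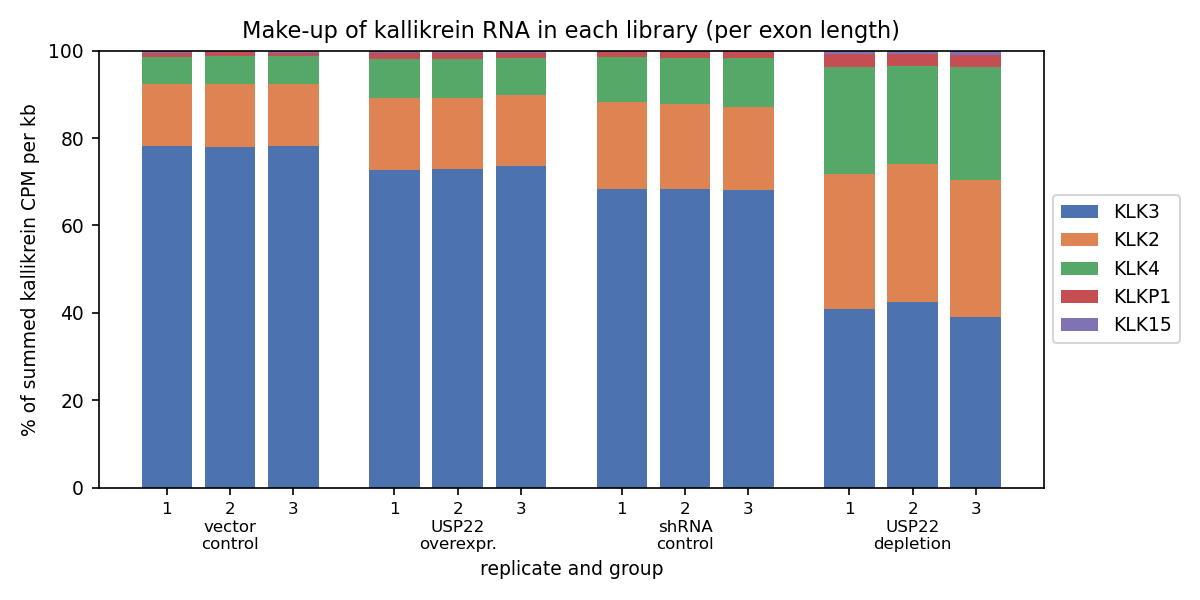
Share of the summed kallikrein CPM per kilobase of exon taken by each of 5 members, 1 bar per library, bars grouped by condition and running from 0 to 100%. KLK3 takes 39.1% to 42.4% in the depletion libraries and at least 68.1% in the other 9.

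A ratio of neighbouring genes within a library does not depend on the library's scaling, and the KLK2 to KLK3 ratio did not overlap between any of the 4 groups. Before depletion there were 0.403, 0.394 and 0.387 KLK2 reads per KLK3 read in the 3 shRNA control libraries, and after it 1.03, 1.03 and 1.11. The log2 ratio was 1.42 higher after depletion, a 2.68-fold difference with no overlap of libraries (exact two-sided permutation test p = 0.1, the smallest 3 against 3 libraries allow). On overexpression the ratio went from 0.248, 0.259 and 0.253 to 0.311, 0.305 and 0.307, a log2 difference of 0.28 with no overlap (exact two-sided permutation test p = 0.1). The replicate SD of the log2 ratio was 0.02 to 0.06, against differences of 0.28 and 1.42. For KLKP1 and KLK4, also neighbours, the log2 ratio differed by -0.02 on depletion and 0.07 on overexpression, with overlapping libraries (exact two-sided permutation test p = 0.9 and 0.8). It was the only ratio computed that overlapped on depletion. KLK15 to KLK3 (2.26), KLK4 to KLK3 (1.92), KLK4 to KLK2 (0.50) and KLKP1 to KLK2 (0.48) were all higher after depletion with no overlap. On overexpression KLK4 to KLK3 (0.58) and KLK4 to KLK2 (0.30) did not overlap. KLK15 to KLK3 (0.38) and KLKP1 to KLK2 (0.37) did overlap on overexpression. In all 6 ratios were computed, each in 3 comparisons, and none can pass after adjustment in this design. KLK2 and KLK3 are close paralogs, and how reads that match both were counted is not given in the sources used here.

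**Figure D5:**
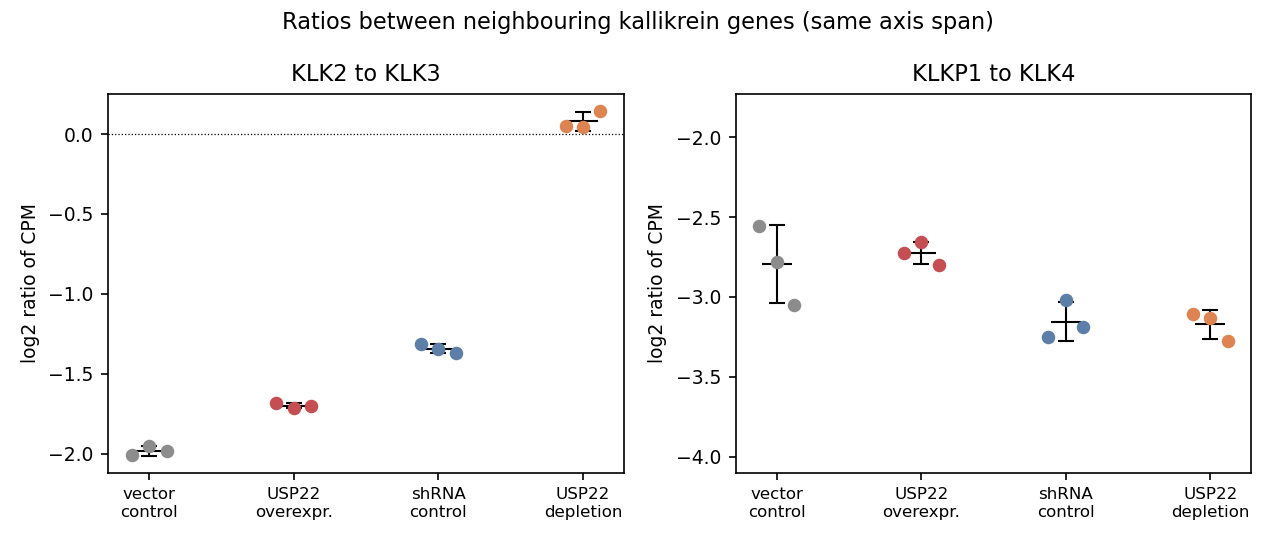
Log2 ratio of CPM within each library for KLK2 to KLK3 (left) and KLKP1 to KLK4 (right), on axes of equal span, with 1 point per library and bars for the mean ± SD of 3 libraries. The KLK2 to KLK3 ratio lies above 0 in the 3 depletion libraries and below -1.3 in the other 9, while the KLKP1 to KLK4 groups overlap within each comparison.

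Over the 12 libraries the members fell into different patterns. Pearson correlations of log2(CPM + 1) were 0.944 between KLK4 and KLKP1, 0.816 between KLK2 and KLK4 and 0.353 between KLK2 and KLK3. They describe 4 group levels more than 12 independent points, and all 12 libraries share 1 cell line. Among 10979 other genes with a symbol and at least 5 CPM, the 5 most like KLK3 were PXDN (0.982), TRIM39, SH3RF1, TAOK3 and PARP10 (0.969). Those most like KLK2 were KRT19 (0.992), a luminal keratin, SAMD11, FSTL3, TCAF1 and TMEM79 (0.986). Those most like KLK4 were DLG4 (0.995), TMEM229B, DIP2C, MXRA7 and CACNA1H (0.994), and those most like KLKP1 were DUSP10 (0.979), KIAA0040, DNAJC6, DDX60 and RNF180 (0.972). For KLK15 the highest value was 0.853, for CROCC, with LRWD1, CYSRT1 and ZNF688 among the next 4.

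The genes around the cluster were not called by edgeR within either comparison. Of the 5 nearest named genes on each side, 4 were tested: TMEM277P, SNORD88A and C19orf48P before KLK1 and CTU1 after KLK14. Their log2 fold changes on depletion ran from 0.01 to 0.30 (edgeR adjusted p = 0.168 to 0.984) and on overexpression from -0.80 to -0.26 (edgeR adjusted p = 0.0739 to 0.735). C19orf48P, the most abundant of them, had log2 fold changes of 0.02 on depletion and -0.30 on overexpression. At an unadjusted p under 0.05, 2 of the 4 were lower on overexpression, SNORD88A and C19orf48P, both also called by DESeq2, and 0 of the 4 differed on depletion by either tool. Over all tested genes 18.5% had such an unadjusted p on overexpression and 30.9% on depletion, and DESeq2 called 9.16% and 21.9%. SNORD88A and C19orf48P were both highest in vector control replicate 3. SNORD88A had 5.3 CPM there, 2.38 and 2.36 in its group mates and 1.75 to 2.13 after overexpression. C19orf48P had 501.2 CPM there, 378.9 and 382.6 in the group mates and 329.7 to 358.3 after overexpression.

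Genes of transcription factors, coregulators and chaperones that take part in the androgen response changed in both directions. Of 14 such genes, 6 fell and 3 rose on depletion, with the smallest adjusted p for GRHL2 (log2 fold change -0.70), a luminal transcription factor, GATA2 (-0.62), a zinc finger transcription factor, and NCOA3 (-0.46), a coactivator. On overexpression 2 rose, HSP90AA1 (0.34) and CREBBP (0.30), and GRHL2 fell (-0.25). The list's median was -0.04 on depletion and -0.02 on overexpression. Of all tested genes 10.4% fell and 9.4% rose on depletion, and 2.6% fell and 1.51% rose on overexpression. The list's overexpression calls numbered 1 with only the 6 libraries compared and 5 without vector control replicate 3. Those settings called 1.37% and 6.85% of all tested genes on overexpression, against 4.11% in the main fit.

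Other androgen-induced genes, on a list chosen with earlier results known, were more often lower than higher on depletion. Of 23 tested, 13 fell and 3 rose, with a median of -0.32, where 10.4% of all tested genes fell and 9.4% rose. EAF2 (log2 fold change -1.67), TRPM8 (-1.77), a cold-sensing ion channel, and PMEPA1 (-0.96) had the smallest adjusted p. FKBP5, a cochaperone, fell by 0.53 and TMPRSS2, a membrane serine protease, by 0.45 on the log2 scale. Both were named after their values were seen, and the 3 genes that rose are not named in this paragraph. On overexpression 6 were called, all lower, with a median of -0.06, led by TRPM8 (-1.38), NDRG1 (-0.65) and HERC3 (-0.38). In the same comparison 2.6% of all tested genes were lower and 1.51% higher. The 6 became 3 with only the 6 libraries compared and 9 without vector control replicate 3. Calls over all tested genes went from 4.11% to 1.37% and 6.85% in those settings. FKBP5 and TMPRSS2 had edgeR adjusted p = 0.621 and 0.654 on overexpression.

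Genes on the lists of prostate secretory proteins and of kallikrein substrates changed in both directions. Beside the counts below, 10.4% of all tested genes fell and 9.4% rose on depletion, and 2.6% fell and 1.51% rose on overexpression. Of 6 tested secretory protein genes, AZGP1 (log2 fold change -1.53) and ACP3, the prostatic acid phosphatase (-0.52), fell and LTF, the gene of lactoferrin, rose (0.97) on depletion. ACP3 (-0.36) and AZGP1 (-0.37) also fell on overexpression, calls that ended with only the 6 libraries compared. The median of the 6 was -0.52 on depletion and -0.36 on overexpression. Of 10 tested genes for kallikrein substrates, IGFBP3, an insulin-like growth factor binding protein cut by prostate-specific antigen, fell on depletion (-1.54), while F2R (0.25) and FN1, fibronectin (0.14), rose. On overexpression FN1 (-0.45), IGFBP3 (-0.54), IGFBP2 (-0.45) and F2RL1 (-0.29) fell and F2R rose (0.37). The median of the 10 was 0.09 on depletion and -0.23 on overexpression. With only the 6 libraries compared, 1 of 10 tested substrate genes was called on overexpression and 5 of 11 on depletion. Calls over all tested genes went from 4.11% to 1.37% on overexpression and from 19.8% to 32.0% on depletion. The semenogelin genes SEMG1 and SEMG2 averaged 0.347 and 0.616 CPM and did not pass in either comparison. Of 8 tested inhibitor genes 1 was called, SPINT1, which fell on depletion (-0.31), and SERPINA3, the gene of the main plasma inhibitor of prostate-specific antigen, averaged 0.0297 CPM. The median of the 8 was 0.05 on depletion and -0.11 on overexpression.

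Markers of other cells were low beside the luminal markers, which summed to between 3528 and 4708 CPM. Summed over 5 basal genes the level was 0.951 to 1.07 CPM in the vector control, 0.665 to 0.913 after overexpression, 3.93 to 4.49 in the shRNA control and 3 to 3.61 CPM after depletion. Most of it was KRT14, a basal keratin, and its part in the KLK2, KLKP1 and KLK4 differences between the control groups was not tested. Over all libraries 5 neuroendocrine genes summed to 2.12 to 3.85 CPM, 6 fibroblast genes to 10.2 to 18.3 CPM and 5 leukocyte genes to 0.2 to 0.522 CPM. The 3 endothelial genes summed to 6.63 to 7.69 CPM in the shRNA control and 11.9 to 14.7 CPM after depletion, nearly all of it VWF, while PECAM1 was at 0 in every library, and the part of this in the KLK3 and KLK2 values was not tested.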

How the data were processed

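The authors deposited raw read counts of 63677 Ensembl genes in 12 LNCaP libraries, made with a stranded kit for total RNA (per the labels' protocols). The submitters' processing notes name hg19, featureCounts 1.5.0-p3, STAR 2.5.2a and DESeq2 1.14.1. For the annotation, the strand setting and reads that match several places, the method is not given in the sources used here. Columns were matched to samples by name, and genes to symbols by ID. RefSeq promoter windows and their coordinates are on GRCh38.p14, and no value was placed on them.

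Counts were analysed with edgeR 4.0.16 in R 4.3.3. Genes passing filterByExpr by group (26076) were scaled by TMM and fitted in 1 model of 4 groups with 8 residual degrees of freedom (glmQLFit, glmQLFTest). Benjamini-Hochberg adjustment ran over the 26076 genes of each comparison, and calls needed an adjusted p under 0.05. Standard errors are the log2 fold change over the root of its F statistic. The depth of 77607469 to 103690001 reads sets the counting error. The fit was tested on simulated data with 200 changed genes per comparison. Promoters were aligned with Biopython 1.88.

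Other settings tried were DESeq2 1.42.0, RLE scaling, no filter, a filter of 1 CPM in 3 libraries, only the 6 libraries compared, a replicate block, library sizes without the 20 most abundant genes and leaving out each library. List counts without vector control replicate 3 or with only the 6 libraries compared were added after seeing the data, as were the motifs. The members and lists were chosen with earlier results of these data known. Named genes are the 8 members, USP22, up to 3 called genes per list and comparison that had the smallest adjusted p and a mean CPM of 1 or more, the 5 genes most like each tested member, and flanking genes. FKBP5, TMPRSS2, IGFBP2, F2RL1, SEMG1, SEMG2, SERPINA3 and markers of other cells were named after their values were seen. Some genes are not reported here and were left out of the lists.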

Additional observations from a re-analysis of the deposited data

How the results depend on the processing

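KLK3 kept its direction and its call in all 19 alternatives of each comparison, with log2 fold changes of -0.57 to -0.41 on overexpression and -2.18 to -2.03 on depletion, and KLK2 kept both on depletion (-0.74 to -0.64). On overexpression 2 members were called with no filter on low counts, and 1 to 2 when 1 library was left out. Those settings called 4.64% and 1.87% to 6.85% of all tested genes, against 4.11% in the main fit. For the difference of the 2 responses 4 members were called with a filter of 1 CPM in 3 libraries, against 2 in the main fit. With that filter the difference was called for 3186 of 15897 tested genes, against 2840 of 26076 in the main fit. The causes of these count changes were not tested. KLK15 differed between the control groups by 0.0093 with the 1 CPM filter and by -0.24 to 0.23 when 1 library was left out, and its overexpression value ran from -0.37 to 0.093 when 1 library was left out, the highest without vector control replicate 3. With the replicate number as a replicate block, KLK3 had -0.51 and -2.13, and the KLK2 to KLK3 log2 ratio changed by 0.28 and 1.42. That block moved the calls over all genes from 1072 to 1098 on overexpression and from 5172 to 5272 on depletion. The labels give same-numbered libraries no shared source. Their deviations correlated at -0.07 to 0.28 on overexpression and -0.02 to 0.14 on depletion, and not every library correlated best with its own number. Over all genes, calls on overexpression numbered 1072, against 327 with only the 6 libraries compared, 1786 by DESeq2, 2062 with no filter, 1842 without vector control replicate 3 and 501 to 630 without 1 overexpression library. Calls on depletion numbered 5172, against 8115 with only the 6 libraries compared and 8359 without vector control replicate 3, and calls on the difference 2840, against 5320 without it.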
